A study of Mus musculus with 18 samples.

Results

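The response of CD4 T cells to a full dose of stimulating beads was described from 6 of the 18 libraries of the series, 3 with 1 bead per cell (high beads) and 3 without beads, all of them cultured with an isotype control antibody (control Ig). The 6 libraries were chosen by their labels alone, and their values were compared across 13075 of the 36528 entries of the deposited table. The cells came from spleens of female NZB/W F1 mice, the offspring of NZB and NZW parents, which develop a disease resembling human lupus. The mice were 21 to 27 weeks old and had 30 to 100 mg/dL of protein in the urine. CD4 T cells were isolated with a kit and cultured for 48 hours in wells of 250000 cells. IL-2 at 10 U/mL and control IgG1 at 25 µg/mL were present in both groups, so the comparison is of beads added to cells that already received IL-2. The beads carry antibodies to CD3 and CD28. Each library started from 100 to 500 ng of RNA and was amplified by PCR (10 cycles). The rest of the series is 3 control Ig libraries with 0.1 beads per cell (low beads) and 9 libraries with an anti-Ox40 antibody at the same bead doses. The labels do not say whether the 3 libraries of a group came from separate mice, from 1 pool or from separate wells, so the p-values below measure only the spread between these libraries.

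CD3 is the signalling part of the T cell receptor (TCR), and CD28 is the receptor for the costimulatory ligands CD80 and CD86. Binding of both starts kinase cascades that end in the NFAT, AP-1 and NF-kB transcription factors, and a resting CD4 T cell then grows, takes up more glucose and amino acids, enters the cell cycle and begins to make cytokines. Resting naive T cells are kept small and mobile by factors such as KLF2 and TCF1, encoded by Tcf7, and depend on the IL-7 receptor for survival.

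Levels are given in nRPKM, reads per kilobase of gene, scaled for the size of the library and normalized further between libraries by the authors, and the 3 values of a group are listed in a fixed but arbitrary order. Fold changes are differences of group means of log2(nRPKM + 1), high beads minus no beads, with standard errors (SE); the added 1 makes the changes of genes with low values smaller than they are. A gene was called, and is said to have risen or fallen, at an adjusted p under 0.05 in limma, and is said to have changed more than 2-fold when limma's treat test against a log2 change of 1 gave an adjusted p under 0.05.

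In each of the 6 libraries the defining genes of CD4 T cells were high. Cd4 stood at 326, 304 and 293 nRPKM without beads and 192, 191 and 197 at high beads, and Cd3e, a chain of CD3, at 262, 254 and 256 nRPKM without beads and 205, 217 and 230.0 at high beads. Both fell (log2 fold change -0.67, SE 0.053, adjusted p = 6.70e-09 for Cd4 and -0.24 for Cd3e), and their levels stayed far above that of Cd8b1, a chain of the CD8 co-receptor, which was 5.47, 5.8 and 6.31 nRPKM without beads and 4.4, 5.58 and 5.67 at high beads (log2 fold change -0.15, SE 0.10, adjusted p = 0.183). Summed over 5 CD8 T cell markers, the level was 40.9 to 45.6 nRPKM without beads and 73.7 to 76.6 at high beads. Of the 4 tested CD8 markers, 1 rose, 1 fell and 2 were not called. Over 20 markers of monocytes and macrophages, the sum was 398 to 435 nRPKM without beads and 45.1 to 54.8 at high beads, and all 16 tested markers fell. The sums of 12 neutrophil markers (22.9 to 39.7 against 2.64 to 7.33), of 10 basophil and mast cell markers (12.8 to 15.5 against 1.59 to 2.78) and of 10 platelet markers (82.4 to 103 against 44.1 to 52.9) were lower at high beads as well. Over 12 dendritic cell markers the sum was higher at high beads (44.6 to 48.4 against 71.9 to 78.0), though 4 of 6 tested fell and 2 rose. The sum of 8 plasma cell markers was 135 to 162 without beads and 359 to 405 at high beads; among them Irf4 and Xbp1 are also induced in activated T cells, and Igj, which joins antibody chains, fell (103, 88.8 and 75.1 to 11.8, 6.17 and 5.38). Of 8 tested NK cell markers (of 13), 7 fell and 1 rose, the latter being Gzma, a granzyme gene that activated T cells also express, and with it in the sum the groups overlapped (61.4 to 72.7 against 60.6 to 96.3). The sums of 13 B cell markers overlapped as well (11.2 to 41.5 against 4.87 to 14.3), and 1 library of each group, the third by accession, stood above the other two. The third library by accession also had the highest B cell marker score of its group in the other 4 groups, and the labels do not say whether these libraries share mice or a day. Without the third library of both groups, 5391 genes were called higher and 4814 lower. In bulk RNA, fewer cells of a type and less RNA per cell cannot be told apart, and the part of such cells in the results below was not tested. The sum of 14 lung epithelium transcripts was 11.4 to 13.5 nRPKM without beads and 36.5 to 132 at high beads, and 8 of the 14, among them the secretory gene Scgb1a1 (20.9, 84.3 and 33.3 at high beads) and the surfactant gene Sftpc (6.96, 23.5 and 9.17), were listed at 0 in every library without beads. Of 8 of these lung transcripts that could be tested, 6 rose and 2 fell, against 43.4% and 38.9% of all tested genes. A transcript at 0 in every library without beads passed the filter only through other libraries and could not fall. The count of rises is therefore in part fixed by the filter.

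An nRPKM of 1 over 1 kb stood for 34.2 to 36.3 reads in the libraries without beads and for 33.6 to 34.7 at high beads, so reads per unit differed little between the groups, while total reads per library are not known. The nRPKM values summed to 278169 to 281836 per library without beads and to 342738 to 346240 at high beads. Calls were made for 10767 of 13075 genes (82.3%): 5680 rose (43.4%) and 5087 fell (38.9%), and the median log2 change over the 13075 was 0.037. With every library scaled to the same sum this median moved to -0.21 and the calls to 4290 higher and 6726 lower; with quantile normalization the calls were 5020 higher and 5705 lower, so small changes of the list medians below are best read against the median of all genes. More than 2-fold changes numbered 1269 higher (9.71%) and 744 lower (5.69%). The 3 libraries of a group all lay on one side of the other 3 for 11037 genes (84.4%), so a lack of overlap is the usual state of a gene in this comparison and not a mark of the genes named below.

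In absolute terms the 12 largest gains included genes of the cytoskeleton, of protein synthesis and folding, and of glycolysis. Tmsb4x, which encodes an actin-binding thymosin, had the largest gain in mean level, from 1482, 1411 and 1337 nRPKM without beads to 2512, 2447 and 2567 at high beads. Hsp90ab1, a cytosolic HSP90 chaperone, stood at 313, 311 and 312 nRPKM without beads and 1369, 1299 and 1275 at high beads. Eef2, the elongation factor that moves the ribosome along the message, went from a mean of 861 to 1769.7, the glycolytic enzyme gene Aldoa from 147 to 1012, the intermediate filament gene Vim from 124 to 984 and the surface antigen gene Ly6a from 69.5 to 899. The other 6 of the 12 genes with the largest gains were Pfn1, Actb, Tubb5, Gnb2l1, Cd52 and Tpi1. In all 12, every library at high beads lay above every library without beads.

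The 12 largest losses in nRPKM included genes of resting T cells, such as Klf2, Tcf7 and Il7r, and 2 small RNA genes. The small nucleolar RNA gene Snord35b stood at 515, 512 and 526 nRPKM without beads and 17.6, 33.2 and 33.5 at high beads, and Mir3064, which lies within the helicase gene Ddx5, at 576, 638 and 678 nRPKM without beads and 247, 263 and 282 at high beads. Ddx5 itself was among the 12 largest losses, from a mean of 485 to 227, and reads of a small RNA gene cannot be separated here from those of a transcript that spans it. The p53-regulated membrane protein gene Shisa5 went from a mean of 798 to 316, the tetraspan-like gene Ms4a4b from 505 to 94.1, the minor histocompatibility antigen gene Hmha1 from 630.4 to 211, and Ltb, the membrane anchor chain of lymphotoxin, from 614 to 244. The remaining losses, in Klf2, Dgka, Tcf7, Gimap3 and Il7r, are described with their groups. The plot of 48 genes by library shows the 6 values of genes from each of the sections that follow.

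**Figure D1:**
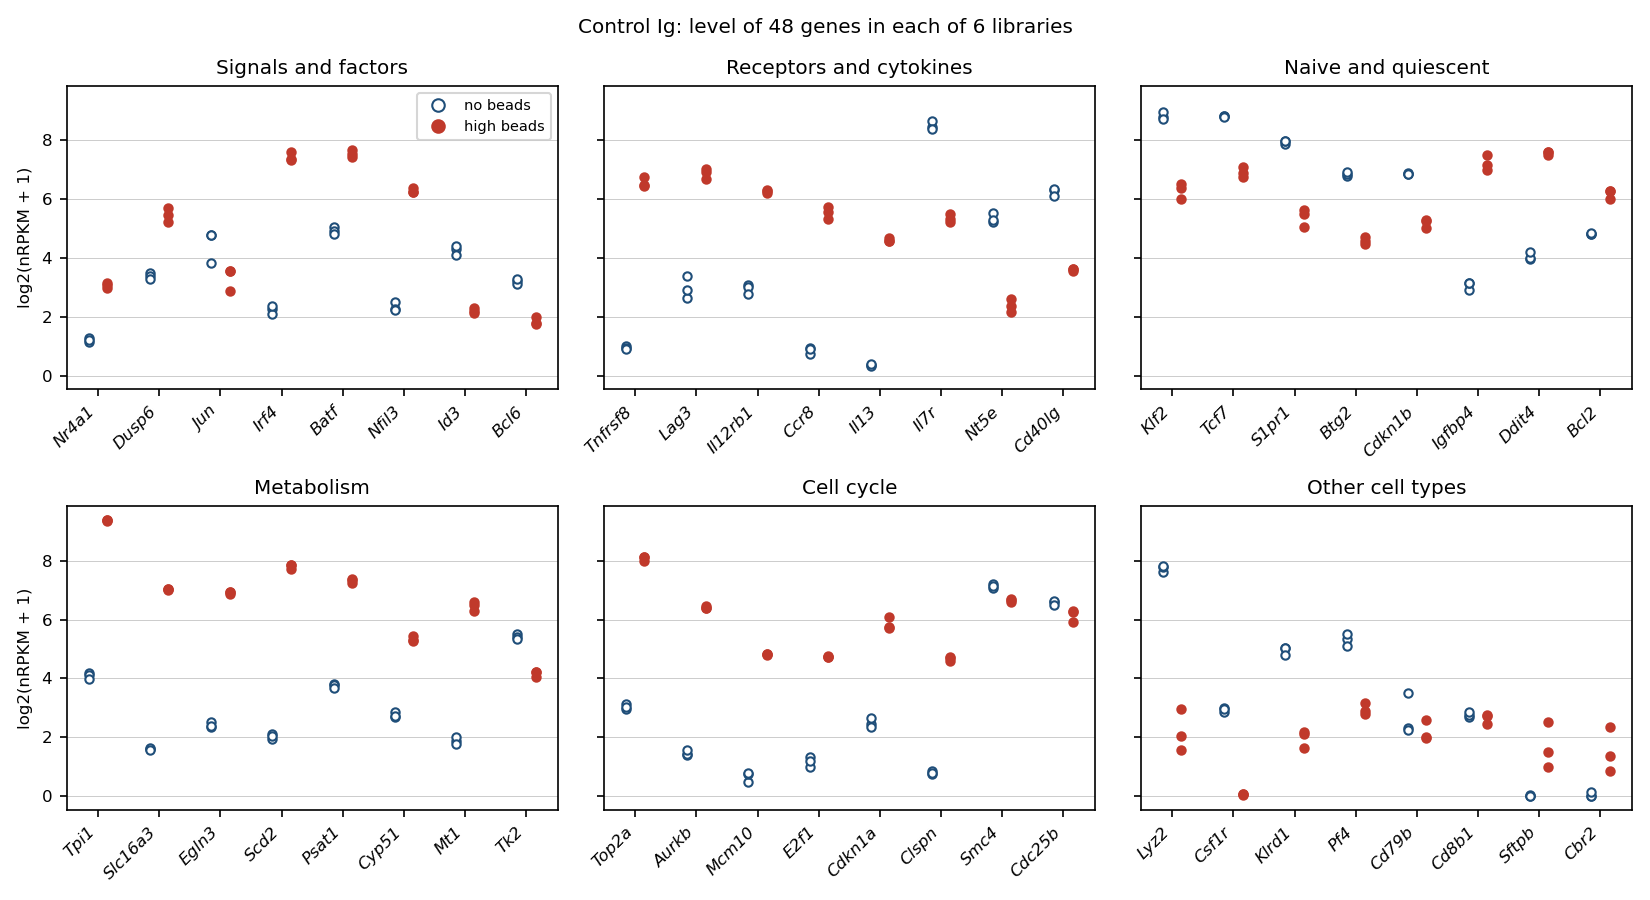
Level of 48 genes, as log2(nRPKM + 1), in the 3 control Ig libraries without beads (open blue circles) and the 3 at high beads (filled red circles), in 6 panels by role. For most genes the libraries of a group sit close together and far from the other group; the groups overlap for Cd8b1 and Cd79b, and the lung transcripts Sftpb and Cbr2 spread widely between the libraries at high beads.

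Genes of the TCR and of its nearest signalling partners changed in both directions. Of 14 tested genes of the TCR complex and its co-receptors, 6 rose (42.9%) and 4 fell (28.6%), with a median of 0.044. Over all tested genes 43.4% rose and 38.9% fell, with a median of 0.037. With quantile normalization 3 of the 14 rose and 9 fell. The largest change was in Trat1, a transmembrane adaptor of the TCR, which stood at 25.9, 26.1 and 26.1 nRPKM without beads and 4.18, 4.0 and 6.51 at high beads (log2 fold change -2.22, SE 0.13, adjusted p = 1.13e-10). Cd27, a costimulatory receptor of the TNF family, fell by 1.08 on the log2 scale, and Cd28 itself rose by 0.61. Among 29 genes of the kinases, adaptors and phosphatases next to the receptor, 17 fell and 10 rose (median -0.37), or 3 with quantile normalization. Dgka, the diacylglycerol kinase that ends the diacylglycerol signal, went from 481, 494 and 490.3 nRPKM without beads to 131, 159 and 149 at high beads (log2 fold change -1.73, SE 0.073, adjusted p = 2.27e-12), and Txk, a kinase of the TEC family, from a mean of 53.2 to 10.6 (-2.24). In the other direction, Ptpn6, the phosphatase SHP-1, rose from 56.2 to 109.6 (0.95) and its partner Themis from 31.6 to 60.8 (0.92). Of the calcium arm, 8 of 15 tested genes fell and 4 rose. The calcium channel gene Orai2 stood at 29.2, 30.2 and 28.4 nRPKM without beads and 5.21, 6.04 and 6.48 at high beads (log2 fold change -2.13, SE 0.06, adjusted p = 2.03e-14), while Nfatc2 rose by 0.71 and Nfatc3 fell by 0.77 on the log2 scale.

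Genes that TCR signals induce within minutes or hours are often used as a sign of recent signalling. Most of them were higher at high beads at 48 hours, the only time measured. Of 22 tested (of 25 listed), 16 rose and 4 fell (median 0.53). Nr4a1, the orphan nuclear receptor Nur77, stood at 1.21, 1.4 and 1.33 nRPKM without beads and 7.81, 6.89 and 7.55 at high beads (log2 fold change 1.86, SE 0.092, adjusted p = 1.80e-11). Egr2, a zinc finger factor of the same early wave, stood at 0.664, 0.854 and 0.79 nRPKM without beads and 7.31, 4.66 and 7.0 at high beads (log2 fold change 2.03, SE 0.15, adjusted p = 2.40e-09). Levels of both stayed below 10 nRPKM at high beads. Dusp6, the phosphatase that acts on ERK, stood at 10.2, 9.39 and 8.8 nRPKM without beads and 36.6, 42.9 and 51.4 at high beads (log2 fold change 2.08, SE 0.14, adjusted p = 1.12e-09), and Junb rose from 77 to 243 (1.65). Its relative Jun went the other way, from 26.4, 26.8 and 13.3 nRPKM without beads to 10.8, 10.8 and 6.41 at high beads (log2 fold change -1.13, SE 0.29, adjusted p = 0.00205), with 1 library of each group below the other two. The immediate early gene Ier5 also fell, from 42.5 to 20.7 (-1.01).

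Most of a group of transcription factors known from effector and memory T cells rose, members of the BATF and IRF families among them. Of 18 tested factors of this group, 12 rose and 4 fell, 8 and 4 of them more than 2-fold. Irf4 (chromosome 13, 30749233 to 30766981, GRCm38), whose product scales the transcriptional response to TCR signal strength, stood at 3.77, 3.27 and 4.18 nRPKM without beads and 196, 164 and 159 at high beads (log2 fold change 5.20, SE 0.12, adjusted p = 1.88e-15). Its partner Batf, an AP-1 family factor, was already expressed without beads and stood at 32, 29.2 and 27.3 nRPKM without beads and 202, 170.1 and 185 at high beads (log2 fold change 2.61, SE 0.077, adjusted p = 3.29e-14). Nfil3 went from a mean of 4.05 to 77.5 (3.96) and Irf8 from 5.46 to 46 (2.86). In these 4 genes the lowest library at high beads was far above the highest without. The falls included Id3, an inhibitor of E proteins that is high in naive and follicular T cells, with 18.8, 16.3 and 20.2 nRPKM without beads and 3.42, 3.56 and 3.9 at high beads (log2 fold change -2.07, SE 0.16, adjusted p = 3.26e-09), Ikzf2, the factor Helios, from 27.6 to 5.96 (-2.05), and Tox, from 14.6 to 3.45 (-1.81). All 18 factors passed the filter on low values.

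Lineage factors of helper T cells were divided: of 21 tested, 7 rose and 10 fell, against 43.4% and 38.9% of all genes. Tbx21, which encodes T-bet, the factor of Th1 cells, stood at 8.06, 8.97 and 7.29 nRPKM without beads and 35.7, 34.1 and 38.2 at high beads (log2 fold change 2.02, SE 0.07, adjusted p = 2.40e-13). Gata3, the Th2 factor, stood at 28.3, 27.5 and 28.5 nRPKM without beads and 90.6, 104 and 112 at high beads (log2 fold change 1.82, SE 0.11, adjusted p = 1.44e-10). Foxp3, the factor of regulatory T cells, fell from 93.3 ± 8.7 to 34.4 ± 8.96 (SD, n = 3; -1.44), and Bcl6, that of follicular helper cells, from 8.17 ± 0.563 to 2.6 ± 0.294 (-1.35). STAT genes were divided too: Stat3 and Stat5a rose (1.07 and 1.18), and Stat4, which acts downstream of IL-12 in Th1 cells, and Stat5b fell (-1.38 and -0.51). At the low bead dose the mean levels of Tbx21, Gata3 and Bcl6 (9.73, 34.4 and 10.2 nRPKM) were near or above those without beads.

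Most surface genes that mark activated T cells rose. Of 22 tested surface genes, 15 rose, 10 of them more than 2-fold, and 5 fell. Tnfrsf8, the TNF receptor family member CD30, stood at 0.998, 0.903 and 0.889 nRPKM without beads and 107, 86.3 and 88.7 at high beads (log2 fold change 5.62, SE 0.14, adjusted p = 6.86e-15). Tfrc, the transferrin receptor through which dividing cells take up iron, stood at 14.9, 15.7 and 16.2 nRPKM without beads and 154, 130.2 and 130.0 at high beads (log2 fold change 3.06, SE 0.061, adjusted p = 4.29e-16), and Icos, a costimulatory relative of CD28, went from 58.6 to 244 (2.04). Ly6a rose by 3.68 on the log2 scale. Cd40lg, the ligand by which helper T cells stimulate B cells, moved against the group, with 77.6, 80.3 and 68.4 nRPKM without beads and 10.7, 11.3 and 11.4 at high beads (log2 fold change -2.65, SE 0.073, adjusted p = 1.53e-14), as did Cd226, an adhesion and costimulatory receptor (17.4 to 5.57, -1.49). The remaining TNF family ligands and receptors mostly fell: 11 of 19 fell and 5 rose. Fasl, the death ligand of FAS, went from 4.67 to 1.03 (-1.49) and Tnfrsf26 from 62 to 22.7 (-1.41), while Tnfsf4, the ligand of Ox40, rose by 1.01 from a low level (0.685, 1.0 and 0.805 to 3.06, 2.47 and 2.51).

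Cytokine receptor genes went both ways. Of 33 tested, 19 fell (57.6%) and 10 rose (30.3%), against 38.9% and 43.4% of all tested genes. Il12rb1, a chain shared by the receptors of IL-12 and IL-23, stood at 7.5, 7.13 and 5.78 nRPKM without beads and 78.1, 73.5 and 76.4 at high beads (log2 fold change 3.31, SE 0.091, adjusted p = 1.38e-14). Il1r2, a decoy receptor for IL-1, stood at 1.1, 0.897 and 1.02 nRPKM without beads and 21.9, 10.1 and 16.8 at high beads (log2 fold change 3.04, SE 0.25, adjusted p = 1.15e-08). Il4ra rose from 56.5 to 265 (2.21) and Il21r from 28.4 to 126 (2.11). Il7r (chromosome 15, 9506159 to 9529941), the IL-7 receptor chain of resting T cells, fell from 354, 404 and 331 nRPKM without beads to 36.6, 39.3 and 44.4 at high beads (log2 fold change -3.15, SE 0.11, adjusted p = 1.57e-13). Il18r1, a receptor chain for IL-18, stood at 61.3, 61.7 and 54.5 nRPKM without beads and 4.42, 4.55 and 3.97 at high beads (log2 fold change -3.50, SE 0.14, adjusted p = 1.21e-12). Ifngr1, the ligand-binding chain of the interferon gamma receptor, fell from 277 to 89.5 (-1.62). The common gamma chain gene Il2rg, which serves the receptors of IL-2, IL-4, IL-7 and IL-21, was not called (259 to 249.8, -0.053, adjusted p = 0.417).

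Most homing genes fell, the receptor for egress among them, and 2 receptors of tissue-homing T cells were among those that rose. Of 25 tested receptors and integrins, 17 fell and 6 rose. S1pr1, the receptor by which T cells leave lymphoid organs, stood at 235, 250.1 and 253 nRPKM without beads and 32.3, 49.1 and 43.8 at high beads (log2 fold change -2.55, SE 0.13, adjusted p = 3.52e-11). Itga4, the alpha chain of the integrins VLA-4 and LPAM-1, fell from 112 to 18.5 (-2.53), and Cxcr5, the follicle-homing receptor, from 14.6 to 3.9 (-1.68). Ccr8 rose from close to nothing, 0.929, 0.658 and 0.882 nRPKM without beads and 52.8, 39.4 and 46.9 at high beads (log2 fold change 4.69, SE 0.13, adjusted p = 1.84e-14), and Ccr4 stood at 3.35, 3.38 and 3.76 nRPKM without beads and 56.5, 51.1 and 57.8 at high beads (log2 fold change 3.64, SE 0.073, adjusted p = 4.64e-16). Ccr7, a lymph node homing receptor of naive cells, rose from 122 to 199 (0.70).

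Cytokine genes were expressed at modest levels at 48 hours, and the ones that rose span several helper lineages. Of 33 listed cytokines 23 passed the filter, 15 rose and 3 fell. Il24 rose the most, from 0.076, 0 and 0 nRPKM to 45.9, 55.1 and 56.7 (log2 fold change 5.70, SE 0.22, adjusted p = 7.26e-13). Il13, a Th2 cytokine, stood at 0.281, 0.243 and 0.32 nRPKM without beads and 22.6, 22.8 and 24.9 at high beads (log2 fold change 4.25, SE 0.23, adjusted p = 4.64e-11), and Il4 at 2.95, 2.39 and 2.22 nRPKM without beads and 17.1, 18.3 and 16.6 at high beads (2.39). Lif, a cytokine of the IL-6 family, went from 0.976 to 20.9 (3.47), Il21, the cytokine of follicular helper cells, from 0.453 to 20.3 (3.85), Il10 from 1.23 to 19.9 (3.17) and Il9 from 0.121 to 11.3 (3.38). For all 7 of these genes every library without beads was below 3 nRPKM and every library at high beads was above 6. Il2 was close to nothing in both groups (0.179, 0.216 and 0.145 nRPKM without beads and 0.577, 0.341 and 0.47 at high beads) and was not called (adjusted p = 0.202), and neither was Ifng (3.44, 2.3 and 2.1 nRPKM without beads and 1.34, 2.42 and 1.23 at high beads, adjusted p = 0.0897). Among falls, Xcl1, which encodes lymphotactin, went from 7.99, 6.47 and 5.88 to 0.574, 0.176 and 0.178 (log2 fold change -2.58, SE 0.13, adjusted p = 2.97e-11) and Il16, a cytokine stored in resting T cells, from 94.8 to 42.6 (-1.14).

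Chemokine genes mostly fell. Of 12 tested (of 18 listed), 7 fell and 2 rose (1 without control Ig none replicate 1 or control Ig high replicate 3). Ccl6 (5.6 to 0.511, -2.13) and Ccl9 (2.61 to 0.137, -1.67), which myeloid cells are known to make, fell along with the myeloid markers above. Ccl4, a chemokine of activated T cells, rose from 1.46 to 4.57 (1.21). Cytotoxic granule genes were divided: of 15 tested, 7 rose, a share near that of all genes (43.4%), 4 fell (7 with equal sums) and 4 were not called. Gzmb stood at 12.6, 9.8 and 11.1 nRPKM without beads and 200.4, 179 and 179 at high beads (log2 fold change 3.95, SE 0.12, adjusted p = 5.34e-14) and Gzma at 11.4, 9.99 and 11.2 nRPKM without beads and 80.2, 67.2 and 49.8 at high beads (log2 fold change 2.47, SE 0.17, adjusted p = 1.46e-09), and Cst7, an inhibitor of granule proteases, went from 14.6 to 125 (3.02). Prf1, which encodes the pore-forming protein perforin, fell from 8.25 to 2.92 (-1.25). Klrd1, a receptor of NK cells, fell from 31.8, 31.5 and 27 to 3.28, 3.47 and 2.08 (log2 fold change -3.0, SE 0.18, adjusted p = 1.40e-10). Gzmb is the product of cytotoxic cells and of activated regulatory cells, and which cells held its RNA cannot be told from bulk libraries.

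Of 12 tested inhibitory receptors and enzymes 6 rose and 6 fell (50% each, against 43.4% and 38.9% of all tested genes). The list median was 0.15, and it was below 0 with quantile normalization (-0.079), with equal sums (-0.13) and with no filter (-0.25). Lag3, which binds class II MHC molecules, stood at 9.4, 5.24 and 6.44 nRPKM without beads and 130.0, 103 and 119.5 at high beads (log2 fold change 3.91, SE 0.24, adjusted p = 2.35e-10). Pdcd1, the receptor PD-1, fell from 34.7, 30.8 and 33.6 to 13.6, 8.55 and 10.6 (log2 fold change -1.53, SE 0.15, adjusted p = 7.65e-08). The pair of ectoenzymes that turn extracellular ATP into adenosine moved apart: Entpd1, CD39, rose from 3.31 to 8.81 (1.19), and Nt5e, CD73, fell from 44.9, 36.1 and 38.3 to 5.1, 3.5 and 4.12 (log2 fold change -2.97, SE 0.20, adjusted p = 7.41e-10). Tigit rose by 1.05 and Ctla4 by 0.61, the latter at 0.19 and not called with quantile normalization. Of 19 genes often used as a signature of regulatory T cells, 10 rose and 8 fell (5 without control Ig none replicate 3). These are 52.6% and 42.1% of the list, against 43.4% and 38.9% of all tested genes. The rises included genes that conventional T cells also induce on activation (Il2ra, from 79.4 to 649.9, 3.02; Tnfrsf18, from 127 to 441, 1.78), and the falls included Foxp3, Ikzf2 and Nrp1, a surface marker of thymus-derived regulatory cells (34.6 to 5.22, -2.51). Of 15 follicular helper genes 10 fell and 2 rose, the latter being Icos and Il21.

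Genes of naive and quiescent T cells fell as groups but with exceptions in both. Of 27 naive genes 19 fell and 4 rose, and of 35 tested quiescence genes 25 fell and 9 rose, with medians of -0.40 and -0.78. Klf2, which keeps T cells quiescent and drives S1pr1, stood at 446, 495 and 422 nRPKM without beads and 63.2, 91.3 and 81.7 at high beads (log2 fold change -2.53, SE 0.13, adjusted p = 3.34e-11). Tcf7 stood at 449.6, 456 and 439 nRPKM without beads and 107, 135 and 119 at high beads (log2 fold change -1.90, SE 0.077, adjusted p = 1.49e-12). Klf3 went from 77.8 to 11.1 (-2.71). Igfbp4, a binding protein for insulin-like growth factors that is usually grouped with naive genes, rose from 6.57, 7.89 and 7.9 to 126, 179.8 and 142 (log2 fold change 4.14, SE 0.21, adjusted p = 2.27e-11), and its mean at the low dose was already 139. Satb1, a chromatin organizer of T cells, rose from 55.6 to 163 (1.54).

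Among quiescence genes, Btg2, an antiproliferative gene that recruits mRNA deadenylases, stood at 109.9, 115 and 121 nRPKM without beads and 21.2, 22.8 and 25.3 at high beads (log2 fold change -2.27, SE 0.087, adjusted p = 7.33e-13), and Cdkn1b, the CDK inhibitor p27, went from 115 to 35.7 (-1.66). Sesn1, which inhibits mTORC1, fell from 58.6 to 11.5 (-2.26). Ddit4, which also inhibits mTORC1 and is induced by stress and low oxygen, did the opposite, with 14.5, 15.2 and 17.4 nRPKM without beads and 192, 181 and 194 at high beads (log2 fold change 3.51, SE 0.10, adjusted p = 3.34e-14). Cdkn2c, the CDK inhibitor p18, rose from 3.53 to 15.8 (1.88). Gimap GTPase genes, which sit in 1 cluster and support lymphocyte survival, fell in 6 of 8 cases. Gimap3 stood at 608, 581 and 556 nRPKM without beads and 242, 258 and 262 at high beads (log2 fold change -1.19, SE 0.066, adjusted p = 6.88e-11), and Gimap7, the only one to rise, at 71.1, 51.2 and 59.2 nRPKM without beads and 129, 125 and 133 at high beads (log2 fold change 1.09, SE 0.11, adjusted p = 7.16e-08).

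Genes of cytokine signalling mostly rose, and those of the NF-kB pathway went both ways. Of 17 genes of the JAK, SOCS and PIM families and STAT5 targets, 12 rose and 4 fell. Cish, a STAT5 target that damps cytokine signals, stood at 38.9, 30.7 and 33.6 nRPKM without beads and 184, 172 and 184 at high beads (log2 fold change 2.36, SE 0.092, adjusted p = 9.57e-13), and Pim2, a survival kinase, went from 17.6 to 82.7 (2.17). Jak3, the kinase on the common gamma chain, rose from 56.8, 52.7 and 50.9 to 199, 206 and 211 (log2 fold change 1.92, SE 0.069, adjusted p = 3.24e-13), while Jak1, its partner kinase in the same receptors, fell from 257, 275 and 261 to 103, 117 and 115 (log2 fold change -1.24, SE 0.049, adjusted p = 1.18e-12). Of 27 NF-kB pathway genes 9 rose (33.3%) and 14 fell (51.9%), against 43.4% and 38.9% of all tested genes. Bcl3, a nuclear IkB protein that works with NF-kB p50, stood at 10.6, 9.37 and 9.13 nRPKM without beads and 91.7, 88.2 and 91.3 at high beads (log2 fold change 3.10, SE 0.083, adjusted p = 1.09e-14), and Nfkb1, which encodes p50, went from 65.1 to 145 (1.14). The adaptor genes Traf5 and Traf1 fell (29 to 10.3, -1.41; 108 to 47.2, -1.18).

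PI3K and mTOR pathway genes divided as well: 14 of 30 tested fell (46.7%) and 11 rose (36.7%), against 38.9% and 43.4% of all genes. The falls included Rictor, the defining subunit of mTORC2 (29.4 to 10.7, -1.37), and its substrate kinase Sgk1 (11.4 to 2.74, -1.73). Of the p110 gamma PI3K, the regulatory subunit gene Pik3r5 fell (57.3 to 19.8, -1.49) while the catalytic subunit gene Pik3cg rose (8.87 to 17.8, 0.93). In the BCL2 family, 10 of 17 tested members rose and 2 fell, and the rises took in both sides: the survival genes Bcl2l1, which encodes BCL-XL (4.31, 3.96 and 4.04 to 23.9, 20.4 and 21.2, 2.16), and Bcl2 (1.36), and the killer gene Bak1 (14.4 to 45.4, 1.59). Bbc3, the p53-regulated killer PUMA, fell from 7.83 to 3.99 (-0.83).

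The plot of gene groups gives the change of every tested member of 33 groups.

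**Figure D2:**
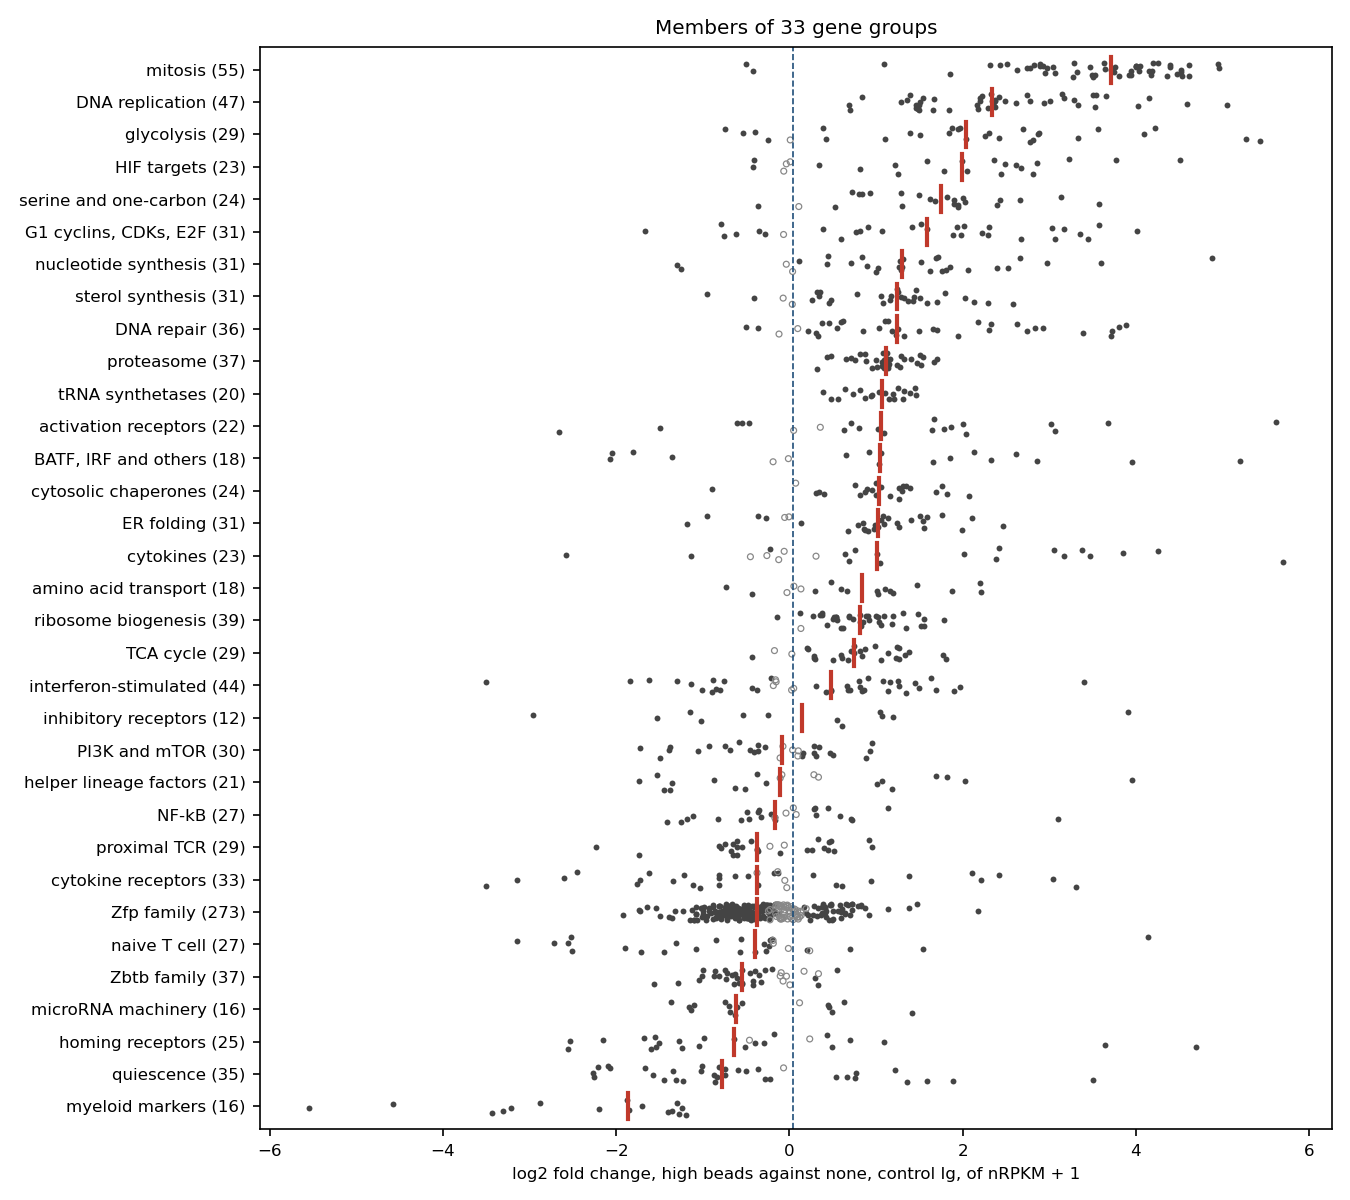
Log2 fold change, high beads against none in control Ig, of each tested member of 33 gene groups (points; filled where called, open where not), with the number of members after each name. Red bars are group medians and the dashed line is the median of all 13075 tested genes, 0.037. Mitosis and DNA replication genes lie furthest to the right and myeloid markers furthest to the left, and receptor and signalling groups spread to both sides.

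Genes of glycolysis rose along the whole pathway, from glucose entry to lactate export. Of 29 genes 24 rose, 21 of them more than 2-fold, and 4 fell (median 2.04). Their summed level went from 0.192% of all nRPKM without beads to 1.19% at high beads. Slc2a1, the glucose transporter GLUT1, stood at 19, 19.1 and 18.3 nRPKM without beads and 139, 137 and 139 at high beads (2.82), and Hk2, the inducible hexokinase, at 1.12, 1.1 and 0.979 nRPKM without beads and 33.7, 35.8 and 33.2 at high beads (log2 fold change 4.09, SE 0.077, adjusted p = 2.96e-16). Tpi1, triosephosphate isomerase (chromosome 6, 124810586 to 124814158), stood at 17, 16.4 and 14.9 nRPKM without beads and 666, 654 and 661 at high beads (log2 fold change 5.27, SE 0.071, adjusted p = 1.87e-17). The lactate dehydrogenase gene Ldha went from 62.2 to 638 (3.34). Slc16a3, the lactate exporter MCT4, stood at 2.05, 2.08 and 1.99 nRPKM without beads and 131, 128 and 131 at high beads (log2 fold change 5.43, SE 0.059, adjusted p = 2.16e-18). The 4 members that fell were Pdk2, a kinase that shuts pyruvate dehydrogenase (7.31 to 3.99, -0.74), Pfkfb2 (3.95 to 2.42, -0.53), Eno3 and Pfkfb4. Gapdh, Pgk1, Pgam1, Eno1 and Tpi1 have near-identical copies in the genome with which reads can be shared, so their levels are to be read with care. Whether reads were shared here was not tested. Gapdh, one of the most abundant messages of most cells, was listed at only 1.62, 1.59 and 1.16 nRPKM without beads and 8.61, 7.78 and 9.02 at high beads.

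Targets of the hypoxia-inducible factors (HIF) rose at high beads. Of 23 genes 18 rose and 2 fell, with a median of 2.0 at high beads; at low beads, measured against the same 3 libraries without beads, the median was 0.055. Egln3, a prolyl hydroxylase that marks HIF for destruction and is itself a HIF target, had means of 4.32, 7.51 and 120.0 nRPKM at no, low and high beads (log2 fold change 4.51, SE 0.11, adjusted p = 3.61e-15 for high against none). Hilpda, a lipid droplet gene, had 5.84, 5.88 and 48.6 (2.86), and Vegfa 1.3, 3.54 and 20.6 (3.23). Bnip3, which marks mitochondria for removal, stood at 0.66, 0.483 and 0.565 nRPKM without beads and 19.5, 20.7 and 21 at high beads (log2 fold change 3.77, SE 0.092, adjusted p = 3.80e-15). Hif1a itself had means of 67.5, 109 and 273 (2.0). Pdk1, often counted among HIF targets, was not called (46.9 to 47.4, 0.0096). The plot by bead dose sets this course beside that of mitosis genes, of which most of the rise was present at the low dose.

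**Figure D3:**
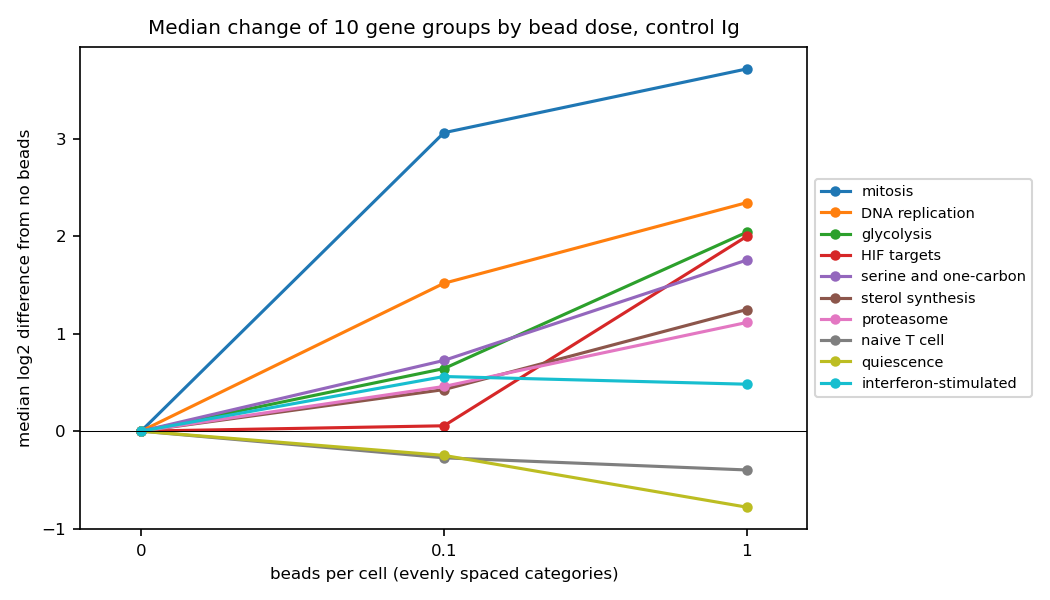
Median log2 difference from the control Ig libraries without beads, over the tested members of 10 gene groups, at 0, 0.1 and 1 bead per cell (doses drawn as evenly spaced categories; all points share the 3 libraries without beads). Mitosis genes reach 3.06 at low and 3.71 at high beads, HIF targets 0.055 and 2.00, and interferon-stimulated genes 0.56 and 0.48.

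Pathways that supply biomass rose with few exceptions. All 7 genes of the pentose phosphate pathway rose, Tkt (transketolase) the most, from 51.4 to 176 (1.76). Of 24 tested genes of serine, one-carbon and amino acid stress metabolism 22 rose and 1 fell. Psat1, which makes phosphoserine, stood at 13, 12.7 and 11.7 nRPKM without beads and 167, 151 and 161 at high beads (log2 fold change 3.58, SE 0.068, adjusted p = 3.02e-16), and Asns, asparagine synthetase, at 7.85, 6.91 and 7.18 nRPKM without beads and 82.7, 61.2 and 73.5 at high beads (log2 fold change 3.13, SE 0.09, adjusted p = 2.43e-14). Phgdh, the entry enzyme of serine synthesis, had lower levels and rose from 2.67 to 13.1 (1.94). Trib3, a pseudokinase that ATF4 induces and that then holds ATF4 back, was the one to fall, from 56.2 to 43.3 (-0.37). Of 18 tested amino acid and folate transporters 13 rose and 2 fell; Slc7a5, the leucine transporter LAT1, stood at 30.8, 32.9 and 31.5 nRPKM without beads and 167, 143 and 143 at high beads (log2 fold change 2.21, SE 0.076, adjusted p = 2.03e-13). Of 31 tested nucleotide enzymes 27 rose. The S phase enzymes led, with Rrm2, the small subunit of ribonucleotide reductase, at 4.28, 5.51 and 4.31 nRPKM without beads and 156, 169 and 175 at high beads (log2 fold change 4.88, SE 0.10, adjusted p = 9.17e-16), and the cytosolic thymidine kinase Tk1 at 2.42, 2.22 and 1.86 nRPKM without beads and 36.7, 36.5 and 38.4 at high beads (log2 fold change 3.60, SE 0.058, adjusted p = 1.05e-16). Their counterparts outside S phase fell: Rrm2b, the p53-inducible small subunit, from 7.06 to 2.28 (-1.30), and Tk2, the mitochondrial thymidine kinase, from 41.6 to 16.9 (-1.25).

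Most lipid synthesis genes rose. Of 31 tested sterol genes 27 rose and 2 fell (median 1.25). Cyp51, which removes a methyl group from lanosterol, stood at 5.5, 6.16 and 5.6 nRPKM without beads and 38.1, 37.3 and 42.5 at high beads (log2 fold change 2.58, SE 0.068, adjusted p = 9.54e-15), and Sqle, squalene epoxidase, at 6.13, 5.92 and 6.18 nRPKM without beads and 32.9, 32 and 36.5 at high beads (log2 fold change 2.30, SE 0.089, adjusted p = 8.41e-13). The genes of the list that fell were Nr1h3 and Nr1h2, the liver X receptor genes, whose products sense oxysterols (1.7 to 0.395, -0.95; 63.9 to 47.9, -0.41). Nr1h3 is also a gene of macrophages, whose markers fell, and the part of such cells was not tested. The exporter gene Abcg1 was not called (13.7 to 13, -0.072). Of 17 tested fatty acid synthesis genes 15 rose. Scd2, a stearoyl-CoA desaturase (chromosome 19, 44293676 to 44306864), stood at 3.3, 2.88 and 3.08 nRPKM without beads and 209.8, 229 and 229 at high beads (log2 fold change 5.77, SE 0.091, adjusted p = 9.18e-17); the microRNA gene Mir5114 lies within it, at 4.17, 8.15 and 6.78 nRPKM without beads and 529.8, 598 and 564 at high beads (6.30). The related Scd1 went from 0.332 to 9.15 (2.96) and the desaturase gene Fads2 from 1.8 to 15.6 (2.56). Acss2, which makes acetyl-CoA from acetate, fell from 8.92 to 4.25 (-0.92).

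Most genes of mitochondrial metabolism rose. Of 29 genes of the TCA cycle and glutamine use 26 rose, with a median of 0.75. Got2, the mitochondrial aspartate aminotransferase, went from 12.7 to 46.8 (1.80). Medians were 0.93 for 43 genes of complex I, 0.82 for 22 of complex IV and 1.13 for 18 of ATP synthase, and 38, 17 and 15 of them rose. Atp5g3, a ring subunit of ATP synthase, went from 86.8 to 307 (1.81). Fatty acid oxidation genes rose in 14 of 18 tested cases, by a median of 0.56. Of 23 antioxidant genes 13 rose (56.5%) and 8 fell (34.8%), against 43.4% and 38.9% of all tested genes. Thioredoxin (Txn1) went from 46.8 to 244 (2.36), while Nfe2l2, the factor NRF2, fell from 33.2 to 17 (-0.92) and Hmox1, heme oxygenase 1, from 20.1, 23.2 and 21.9 to 13.5, 10.5 and 12.2 (log2 fold change -0.80, SE 0.12, adjusted p = 9.04e-06). Gclc and Slc7a11, known targets of NRF2 for the synthesis of glutathione, fell as well (23.9 to 14.3, -0.71; 1.41 to 0.449, -0.73). With equal sums as the scaling the median of these 23 genes was -9.8e-05, against 0.29 on the authors' scale.

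The metallothionein genes, which bind zinc and copper, rose, and zinc transporters went both ways. Mt1 stood at 2.68, 3.04 and 2.43 nRPKM without beads and 95.2, 76.8 and 88.5 at high beads (log2 fold change 4.56, SE 0.15, adjusted p = 1.72e-13) and Mt2 at 2.08, 1.74 and 1.88 nRPKM without beads and 60.3, 49.1 and 51.7 at high beads (log2 fold change 4.23, SE 0.18, adjusted p = 3.25e-12). Means at low beads were 5.47 and 3.04, so most of the rise of both lay between the low and the high dose. Slc30a1, a zinc exporter that the same metal-responsive factor is known to induce, fell from 7.46, 7.49 and 7.89 to 2.66, 2.63 and 2.56 (log2 fold change -1.25, SE 0.068, adjusted p = 5.65e-11). The importer gene Slc39a8 rose from 2.66 to 10.3 (1.63), and Mtf1, the zinc-sensing factor, was not called (4.62 to 4.43, -0.05).

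Genes for building and folding proteins rose almost without exception. Of 39 ribosome biogenesis genes 37 rose and 1 fell. Nhp2, a small nucleolar ribonucleoprotein subunit, went from 19.4 to 69.1 (1.78), and the gene that fell was Polr1a, the largest subunit of RNA polymerase I (17.3, 19.6 and 19.8 to 17.5, 18 and 15.5, -0.14, adjusted p = 0.0448 and overlapping values); Polr1a was not called without control Ig none replicate 2 or 3 or control Ig high replicate 3 (adjusted p = 0.142, 0.158 and 0.243 in limma). Of 37 translation factors 32 rose; Eif4ebp1, the mTORC1 substrate that holds back cap-dependent translation, stood at 11.8, 11.3 and 12.7 nRPKM without beads and 133, 119 and 119 at high beads (log2 fold change 3.27, SE 0.088, adjusted p = 1.15e-14). Its relative Eif4ebp2 fell by 0.41 on the log2 scale, and of the helicase pair Eif4a1 and Eif4a2 the first rose by 0.40 (0.13 and not called with equal sums) and the second fell from 126 to 56.3 (-1.15). All 20 cytosolic tRNA synthetase genes rose, by 0.39 (Cars; 0.099 and not called with equal sums) to 1.46 (Kars). All 37 proteasome genes rose, by 0.32 (Psmd4, which was at -0.096 with quantile normalization and not called with equal sums) to 1.70 (Psmb2). For comparison, 43.4% of all tested genes rose.

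Cytosolic chaperones rose in 22 of 24 tested cases, with Hsf1, the factor that induces heat shock genes, the one to fall (38.9, 40.4 and 39.5 to 22.3, 19.4 and 20.7, log2 fold change -0.90, SE 0.05, adjusted p = 6.73e-11). Genes of protein folding in the endoplasmic reticulum rose in 25 of 31 cases. Sdf2l1, a chaperone cofactor, went from 10.5 to 63 (2.47) and Xbp1, a factor of the unfolded protein response, from 41.3, 41.7 and 42.1 to 183, 176 and 192 (log2 fold change 2.11, SE 0.10, adjusted p = 1.90e-11). Ern1, the sensor IRE1 that splices Xbp1 mRNA, fell from 8.1 to 3.0 (-1.19). Lysosome and autophagy genes were on the other side, 17 of 34 lower and 8 higher. Ctsh (4.9 to 0.564, -1.93) and Cd63 (2.58 to 0.41, -1.34), which myeloid cells express strongly, fell together with the myeloid markers, and Npc2, which carries cholesterol out of the lysosome, rose from 86.3 to 252 (1.53).

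Of 79 tested cytosolic ribosomal protein genes 62 rose (median 0.61), and their share of all nRPKM went from 3.07% to 3.72%. Rps27l rose from 15.4 to 63.9 (1.98), and its paralog Rps27 fell from 14.2 to 6.74 (-0.99). Many ribosomal protein genes have processed copies, so their single values are to be read with care. The part of such copies was not tested. Mitochondrial ribosomal protein genes rose in 66 of 74 cases (median 0.85).

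Cell cycle genes had the highest medians of the lists described here. All 47 DNA replication genes rose, 44 of them more than 2-fold, and of 55 mitosis genes 53 rose and 2 fell, with medians of 2.34 and 3.71. Top2a, the topoisomerase that untangles sister chromosomes (chromosome 11, 98992947 to 99024199), stood at 6.74, 7.75 and 7.11 nRPKM without beads and 253, 279 and 280.3 at high beads (log2 fold change 5.05, SE 0.10, adjusted p = 3.76e-16). Mcm10, which helps to start the replicative helicase, stood at 0.396, 0.664 and 0.712 nRPKM without beads and 27.4, 27.1 and 27.1 at high beads (log2 fold change 4.15, SE 0.12, adjusted p = 3.30e-14). Ube2c, the ubiquitin-conjugating enzyme of the anaphase-promoting complex, stood at 2.85, 2.8 and 2.72 nRPKM without beads and 108, 119.6 and 122 at high beads (log2 fold change 4.95, SE 0.11, adjusted p = 1.08e-15). The 2 mitosis genes that fell were Smc4, a condensin subunit, from 147, 134 and 139 to 94.8, 99.4 and 102 (log2 fold change -0.50, SE 0.059, adjusted p = 7.11e-07), and Cdc25b, a phosphatase that activates CDK1, from 96.5, 97.6 and 89.5 to 59.5, 76.1 and 76.6 (log2 fold change -0.42, SE 0.081, adjusted p = 1.51e-04); without beads their levels were above those of the other 53 mitosis genes. Smc2, the condensin partner of Smc4, rose from 6.91 to 60.2 (2.95).

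Of 31 tested genes of G1 control 24 rose and 6 fell. E2f1 went from 1.25 to 25.6 (3.57) and Cks1b, a CDK subunit needed to degrade p27, from 2.8 to 60.2 (4.01). Cdkn1a, the CDK inhibitor p21 and a target of p53, stood at 4.5, 5.24 and 4.08 nRPKM without beads and 66.2, 51.1 and 52.9 at high beads (log2 fold change 3.36, SE 0.12, adjusted p = 3.34e-13), and its mean at low beads was 10.3. Of 25 tested genes of p53 and its targets 15 rose (60%) and 8 fell (32%), against 43.4% and 38.9% of all tested genes. Gadd45g (1.92 to 24.4, 3.14) and Cdkn1a were at one end and Btg2 and Sesn1 at the other. Of 36 DNA repair genes 32 rose. Clspn, an adaptor of the checkpoint kinase CHK1, stood at 0.693, 0.782 and 0.704 nRPKM without beads and 22.9, 25.6 and 25 at high beads (log2 fold change 3.88, SE 0.064, adjusted p = 1.15e-16). Lig4, the ligase of end joining, fell from 2.77 to 1.67 (-0.50).

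Promoters of several groups were searched on both strands for known motifs. The RefSeq promoters (GRCm38.p6, 250 bases before to 50 after the start) cover 8730 of the 13075 tested genes (66.8%), and the shares are descriptions without a test. The cell cycle homology region, TTTGAA, was in 34 of 46 mitosis promoters (73.9%) and in 11.8% of promoters of all tested genes; the CCAAT box was in 33 of the 46 (71.7%) against 39.2%, and in 18 of 23 sterol gene promoters (78.3%). The E2F motif TTTCCCGC was in 7 of 38 DNA replication promoters (18.4%) against 2.21%. TGATGNAA, the amino acid response element bound by ATF4, was in 5 of 12 tRNA synthetase promoters (41.7%) and 4 of 20 of the serine and one-carbon group (20%) against 2.23%. The interferon-stimulated response element (ISRE) was in 17 of 28 promoters of interferon-stimulated genes (60.7%) against 3.16%. The ETS motif CCGGAAG was in 10 of 31 proteasome promoters (32.3%) against 19.8%, and among all genes that fell more than 2-fold it was in 7.28%. The sterol response element TCACNCCAC was in 1 of 23 sterol promoters, that of Hmgcs1. A match is a string of letters and does not show that a factor was bound.

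The 250 bases before the start of 4 genes are shown, each on the strand of the gene, to let the motif be seen in its place. The 4 are 1 gene each of the replication, mitosis, sterol and amino acid groups. Each was picked by the size of its rise among members that rose and whose promoter holds the motif. They are therefore not typical of their groups. Capitals mark the motif or its reverse complement. Cdc6, which loads the replicative helicase, rose from 0.497 to 16.4 (3.54); its segment is chr11:98907901-98908150, plus strand, and GCGGGAAA, the reverse complement of TTTCCCGC, begins 138 bases before the start. Ube2c has the segment chr2:164769679-164769928, plus strand, and TTCAAA, the reverse complement of TTTGAA, begins 29 bases before the start. Hmgcs1, the synthase at the head of the sterol pathway, rose from 11.7 to 40.3 (1.70); its segment is chr13:119690101-119690350, plus strand, with the sterol element 137 bases before the start. Asns has the segment chr6:7693210-7693459, minus strand, with the amino acid response element 23 bases before the start.
Cdc6: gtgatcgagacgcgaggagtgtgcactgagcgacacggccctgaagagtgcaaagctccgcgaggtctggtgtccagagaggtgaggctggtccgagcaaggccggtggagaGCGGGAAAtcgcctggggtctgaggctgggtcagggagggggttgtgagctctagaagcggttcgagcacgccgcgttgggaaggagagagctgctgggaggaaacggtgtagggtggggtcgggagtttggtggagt
Ube2c: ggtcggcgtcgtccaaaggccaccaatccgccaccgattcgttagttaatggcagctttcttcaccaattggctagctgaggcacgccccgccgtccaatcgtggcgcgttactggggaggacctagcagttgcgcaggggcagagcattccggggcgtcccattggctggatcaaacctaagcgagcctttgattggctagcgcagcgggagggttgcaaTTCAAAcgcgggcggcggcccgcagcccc
Hmgcs1: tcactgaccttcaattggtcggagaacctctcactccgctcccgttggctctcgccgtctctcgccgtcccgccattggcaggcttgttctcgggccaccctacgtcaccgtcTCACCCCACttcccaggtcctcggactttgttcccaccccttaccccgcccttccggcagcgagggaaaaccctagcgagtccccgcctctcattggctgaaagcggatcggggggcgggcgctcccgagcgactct
Asns: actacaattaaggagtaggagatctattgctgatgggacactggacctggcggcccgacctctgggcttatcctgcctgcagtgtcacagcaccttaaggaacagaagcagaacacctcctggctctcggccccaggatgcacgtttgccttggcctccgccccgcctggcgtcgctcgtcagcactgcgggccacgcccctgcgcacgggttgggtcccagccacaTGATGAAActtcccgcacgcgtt

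Chromatin genes went both ways, and most zinc finger factor genes fell. Of 31 tested chromatin enzymes 18 rose (58.1%) and 10 fell (32.3%), against 43.4% and 38.9% of all tested genes. Ezh2, the methyltransferase of Polycomb in dividing cells, stood at 25.9, 24 and 23.3 nRPKM without beads and 136, 140.3 and 143 at high beads (log2 fold change 2.47, SE 0.077, adjusted p = 6.08e-14), and Ezh1, its counterpart in resting cells, at 31.6, 31.4 and 32.3 nRPKM without beads and 11.2, 11.5 and 11.1 at high beads (log2 fold change -1.42, SE 0.036, adjusted p = 5.85e-15). Dnmt1, which copies DNA methylation after replication, went from 35 to 148 (2.05) and its guide Uhrf1 from 1.88 to 68 (4.58). Kmt2d and Kmt2c, large methyltransferases of enhancers, fell from 48 to 13.6 and 23.3 to 8.12 (-1.74 and -1.40). Of 273 tested genes numbered as Zfp zinc fingers, 178 fell and 46 rose, and of 37 tested Zbtb genes 27 fell and 3 rose, with medians of -0.37 and -0.54. For comparison, 38.9% of all tested genes fell. Zfp949 had the largest fall of the Zfp genes, from 35.5, 34.7 and 33 to 7.57, 9.29 and 8.23 (log2 fold change -1.92, SE 0.12, adjusted p = 2.28e-10), and Zfp367, a factor expressed in S phase, the largest rise, from 3.21, 3.6 and 3.73 to 19, 18.5 and 21 (log2 fold change 2.18, SE 0.06, adjusted p = 1.51e-14). Zbtb4 fell from 17.3 to 5.23 (-1.56). Variant histone gene H2afx rose by 2.87.

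Most splicing genes rose and most genes of the microRNA pathway fell. Of 39 splicing genes 29 rose and 6 fell: Snrpd1, a core protein of spliceosomal particles, stood at 16.3, 14.2 and 14.4 nRPKM without beads and 70.1, 67.6 and 71.7 at high beads (log2 fold change 2.15, SE 0.079, adjusted p = 4.58e-13), and Srsf5, a splicing regulator, at 189.5, 192 and 181 nRPKM without beads and 99, 105 and 107 at high beads (log2 fold change -0.85, SE 0.053, adjusted p = 3.46e-10). Of 16 tested genes of microRNA production and action 10 fell and 5 rose. Those that cut or load microRNAs in part rose (Tarbp2, from 4.57 to 13.9, 1.42; Drosha, from 11.1 to 17.8, 0.63), and Ago2, the argonaute that can cut its target, rose by 0.46 (0.17 and not called with equal sums) while Ago1, Ago3 and Ago4 fell (-0.55, -1.10 and -0.69). The 3 GW182 scaffold genes that carry out silencing, Tnrc6a, Tnrc6b and Tnrc6c, all fell (-1.14, -1.37 and -1.15).

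Direction went with transcript length across the whole comparison. For 11470 genes with a known length (87.7%), split into 5 equal bins by the longest transcript, 47.4% of genes in the shortest bin rose and 27.6% fell, and in the longest bin 32.7% rose and 52.9% fell. Median log2 changes from the shortest to the longest bin were 0.23, 0.20, 0.10, -0.0020 and -0.18. The median longest transcript was 1094 bases for cytosolic ribosomal protein genes and 1883 for proteasome genes, which rose, and 3667 for Zfp genes, 6449 for histone lysine methyltransferases and demethylases and 7705 for microRNA machinery genes, most of which fell. It was 3128 for DNA replication and 3651 for mitosis genes, which rose. The part of length in these results was not tested.

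**Figure D4:**
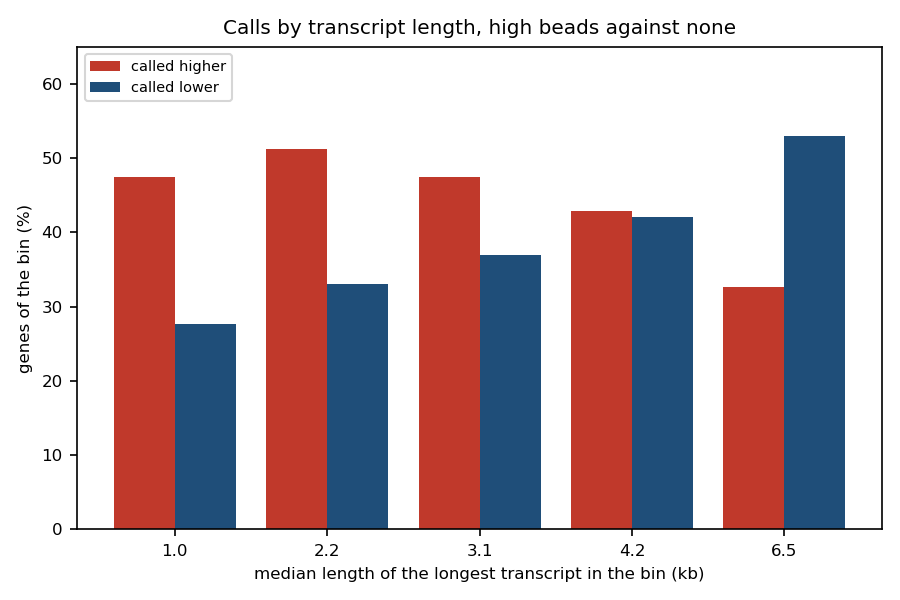
Percentage of genes called higher (red) and lower (blue) at high beads in 5 bins of 2293 to 2296 genes each, ordered by the length of the longest transcript; the axis gives the median length of each bin in kilobases. The share of lower genes climbs from 27.6% to 52.9% as length increases.

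Of 17 tested long noncoding RNAs 8 rose (47.1%) and 6 fell (35.3%), near the shares of all genes (43.4% and 38.9%), and nuclear ones were among the falls. Malat1 stood at 247, 393 and 346 nRPKM without beads and 86.4, 109 and 62.9 at high beads (log2 fold change -1.93, SE 0.30, adjusted p = 1.98e-05), and Neat1, the scaffold of paraspeckles, at 207, 208 and 209 nRPKM without beads and 72, 83.6 and 94.4 at high beads (log2 fold change -1.32, SE 0.14, adjusted p = 3.37e-07). A score over these and 4 other nuclear RNAs was 2.73 to 2.84 without beads and 2.13 to 2.22 at high beads. With it as a covariate the counts of called genes dropped to 3895 higher and 3355 lower. Malat1, itself part of the score, then became positive (0.48) and was not called. Values of the score do not overlap between the groups, so the score and the bead dose cannot be told apart. Peg13, an imprinted noncoding RNA, fell from 39.7, 38.5 and 40.7 to 2.29, 2.14 and 1.88 (log2 fold change -3.71, SE 0.074, adjusted p = 4.62e-16). Host genes of small nucleolar RNAs went the other way, Snhg4 from 2.15 to 9.99 (1.80) and Snhg1 from 66.5 to 146 (1.12).

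MicroRNA genes were measured as stretches of longer transcripts, not as mature microRNAs. They are far shorter than 1 kb, so an nRPKM of 1 stands for few reads, and their low values are to be read with care. Of 55 listed names 23 passed the filter; 6 fell, 1 rose and 16 were not called. Mature sequences are shown, from RefSeq (GRCm38.p6), for 2 pairs of called genes that share a seed and for Mir142, the gene with the highest level; the seed, bases 2 to 8, is in capitals. Mir25 and Mir92-1 give mature microRNAs with 1 seed, and so do Mir29b-2 and Mir29c. The pair that shares AUUGCAC parted: Mir25, within an intron of the replication gene Mcm7, rose from 7.74, 6.27 and 5.58 to 8.92, 12.6 and 12 (log2 fold change 0.69, SE 0.25, adjusted p = 0.0198; Mcm7 itself rose by 2.18), though it was not called with equal sums or without control Ig none replicate 3, control Ig high replicate 2 or control Ig high replicate 3, and Mir92-1, within Mir17hg, fell from 6.71, 6.95 and 4.13 to 2.16, 4.05 and 1.11 (log2 fold change -1.07, SE 0.33, adjusted p = 0.00668; Mir17hg -0.79). The pair that shares AGCACCA fell together, Mir29b-2 from 4.19, 7.22 and 2.72 to 0.712, 0.727 and 0.734 (-1.65, adjusted p = 0.00232) and Mir29c from 6.74, 4.65 and 4.38 to 1.64, 1.34 and 1.69 (-1.28, adjusted p = 0.00952; not called with a pseudocount of 0.1). Mir142, a haematopoietic microRNA gene, fell from 273, 287 and 249 to 84.2, 96.2 and 94.3 (log2 fold change -1.55, SE 0.16, adjusted p = 1.21e-07). Mir155, a microRNA gene of activated lymphocytes, stood at 2.17, 0.90 and 0.848 nRPKM without beads and 3.1, 3.63 and 1.83 at high beads and was not called (log2 fold change 0.76, SE 0.41, adjusted p = 0.0993).
miR-25-3p: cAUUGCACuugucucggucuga
miR-92a-3p: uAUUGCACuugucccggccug
miR-29b-3p: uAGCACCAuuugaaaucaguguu
miR-29c-3p: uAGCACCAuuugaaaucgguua
miR-142a-3p: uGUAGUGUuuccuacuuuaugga

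Interferon-stimulated genes went both ways: guanylate-binding protein genes, which interferon gamma is known to drive, rose, and genes such as Ifit2 and Ddx58 fell. Of 44 tested genes (of 49) 25 rose (56.8%) and 14 fell (31.8%), against 43.4% and 38.9% of all tested genes. Gbp2, a guanylate-binding protein, stood at 29.8, 27.5 and 23.5 nRPKM without beads and 300.5, 320.3 and 260.1 at high beads (log2 fold change 3.40, SE 0.14, adjusted p = 2.26e-12), and Igtp, a related GTPase, at 91, 84.4 and 79 nRPKM without beads and 309.8, 331 and 319 at high beads (log2 fold change 1.91, SE 0.068, adjusted p = 3.05e-13). By symbol family, 12 of 15 tested guanylate-binding and immunity-related GTPase genes rose (3 fell with quantile normalization), with a median of 1.16 at high and 1.33 at low beads. Ifi203, a member of the interferon-inducible p200 family, went down from 37, 34.8 and 33.6 to 1.35, 2.94 and 2.49 (log2 fold change -3.50, SE 0.18, adjusted p = 3.65e-11), Ifit2, which blocks translation of viral RNA, from 31.3, 31.8 and 31.4 to 7.8, 8.23 and 8.24 (log2 fold change -1.84, SE 0.051, adjusted p = 1.68e-14), and Ddx58, the RNA sensor RIG-I, from 28.1 to 13.6 (-1.01). Ifit2 and Ifi203 are also expressed by myeloid cells, whose markers fell in the same libraries. Of 20 tested genes of antigen presentation 10 fell and 5 rose. The class II gene H2-Aa, which B cells and myeloid cells express, fell from 18.3, 20.5 and 25.8 to 2.76, 2.72 and 4.39 (log2 fold change -2.40, SE 0.38, adjusted p = 1.96e-05), and the peptide transporter gene Tap1 rose from 117 to 172 (0.56).

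Genes of the cytoskeleton, annexins and galectins rose in 25 of 39 tested cases and fell in 10. Vim stood at 134, 116 and 121 nRPKM without beads and 905, 1047 and 998 at high beads (log2 fold change 2.98, SE 0.09, adjusted p = 4.35e-14), Anxa2 at 28, 23.4 and 22.8 nRPKM without beads and 179.8, 202 and 192 at high beads (log2 fold change 2.91, SE 0.10, adjusted p = 1.95e-13), and Lmnb1, a lamin of the nuclear envelope, at 24, 26.2 and 24.8 nRPKM without beads and 138, 156 and 157 at high beads (log2 fold change 2.54, SE 0.085, adjusted p = 1.45e-13). S100a4 and Lgals3 moved against the group: S100a4, a calcium-binding protein of memory T cells and macrophages, stood at 85.7, 68.2 and 52.6 nRPKM without beads and 8.01, 7.15 and 8.88 at high beads (log2 fold change -2.93, SE 0.22, adjusted p = 3.24e-09), and Lgals3 went from 46.3 to 8.86 (-2.27) while Lgals1 went from 67.2 to 347 (2.35). Among genes with Arhgap, Arhgef and Dock symbols 29 of 43 tested fell; Arhgef18 had the largest fall, from 81.3, 90.5 and 90.6 to 15, 21.7 and 21.1 (log2 fold change -2.14, SE 0.12, adjusted p = 6.88e-11), and Arhgap11a, which acts in cytokinesis, the largest rise, from 1.71, 1.78 and 1.61 to 25.1, 28.9 and 29.2 (log2 fold change 3.41, SE 0.077, adjusted p = 1.76e-15).

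Most genes in common use as expression standards were not steady. Of 26 such genes 20 rose, 8 of them more than 2-fold, 2 fell and 4 were not called. Hprt rose from 53.9, 51.2 and 48.5 to 173, 161 and 169 (log2 fold change 1.69, SE 0.054, adjusted p = 9.15e-14), Atp5b from 214 to 628 (1.55) and Actb from 956 to 1728 (0.85; 0.086 and not called with quantile normalization). B2m, with 2469, 2237 and 2291 nRPKM without beads and 2271, 2259 and 2503 at high beads (0.0071, 95% interval -0.15 to 0.17), Tbp, with 21.8, 20.8 and 20.2 nRPKM without beads and 22.4, 20.9 and 22.6 at high beads (0.067, -0.039 to 0.17), and Ppia were among the 4 not called. Sdha rose by 0.29, but was at -0.12 with quantile normalization and at -0.0060 with equal sums. The genes with the narrowest intervals around 0 among those at 50 nRPKM or more in both groups were led by Top2b (70.6, 72.3 and 71.5 nRPKM without beads and 69, 72.1 and 69.8 at high beads; -0.093 to 0.045), the topoisomerase of non-dividing cells and paralog of Top2a, and by Arhgap30 (101, 101 and 102 nRPKM without beads and 96.2, 103 and 103 at high beads; -0.10 to 0.071). Others were Ik, Rbck1, Nckap1l, Csnk1d, Yy1, Smarcc2, Epn1 and Ddx39b. Steadiness here is on the authors' scale, on which the sum of all values was higher at high beads.

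The same 2 bead doses were also compared in the 6 libraries with anti-Ox40 in place of control Ig, which share no library with the comparison above. There 11052 genes were called (84.5%). Across the 13075 genes the log2 changes of the 2 arms had a Pearson correlation of 0.973, given as a description since genes are not independent. Of 10767 genes called in control Ig, 98.3% changed in the same direction with anti-Ox40, and of 2013 that changed more than 2-fold all did. Irf4 rose by 5.20 in control Ig and by 5.66 with anti-Ox40, Top2a by 5.05 and 4.42, Tpi1 by 5.27 and 5.29, and Il7r fell by 3.15 and 3.16. The absolute change was larger with anti-Ox40 for 1284 of the 2013 genes (63.8%).

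A difference between the 2 arms in the bead effect was called for 1451 genes (11.1%), 837 with a larger value in anti-Ox40 and 614 with a smaller one, and for none was the difference called past 2-fold by limma's treat test, with 3490 at an unadjusted p under 0.05. These counts depend on single libraries: leaving out 1 of the 12 at a time gave 344 to 944 and 258 to 799, with the lowest counts without anti-Ox40 high replicate 1 and the highest without control Ig high replicate 1. Both counts also moved by more than 1.5 times without control Ig none replicate 3 (517 and 362) and control Ig high replicate 2 or 3 (405 and 327, 367 and 263), and the count with a larger value did so without control Ig none replicate 1 or 2 (538 and 509) and anti-Ox40 none replicate 1 or 2 (531 and 545). Batf3, an AP-1 family factor that pairs with JUN, stood at 0.616, 0.75 and 0.53 nRPKM without beads and 8.06, 6.61 and 6.98 at high beads in control Ig (2.33), and at 1.06, 0.246 and 0.533 and 38.7, 33.5 and 31.7 with anti-Ox40 (4.49; difference 2.16, SE 0.20, adjusted p = 8.76e-05). Il9 was at 15.6, 11.9 and 6.27 at high beads in control Ig and at 127, 95.3 and 41 with anti-Ox40 (difference 2.07, SE 0.58, adjusted p = 0.0339), and Il21 at 24.6, 21.5 and 14.8 and 74.4, 70.6 and 67.2 (difference 1.74, SE 0.25, adjusted p = 0.002). The call was lost in 9 of 12 fits with 1 library left out for Il9 (adjusted p = 0.0546 to 0.100 in limma) and in 9 for Ms4a4b (0.0571 to 0.0961), and in none for Batf3 and Il21. With a pseudocount of 0.1 the Il9 difference was 0.61 (adjusted p = 0.680 in limma) and with 0.5 it was 1.73 (0.0921), neither called. With no filter neither Il9 (0.0817) nor Ms4a4b (0.0824) was called, and with only the groups compared Ms4a4b was not (0.0672). For Batf3, Il9 and Il21 every anti-Ox40 library at high beads was above every control Ig library at that dose. Ms4a4b fell further with anti-Ox40, to 16.6, 56 and 20.6 nRPKM against 56.6, 113 and 113 in control Ig with 56.0 and 56.6 the closest pair (difference -1.61, SE 0.45, adjusted p = 0.0341).

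**Figure D5:**
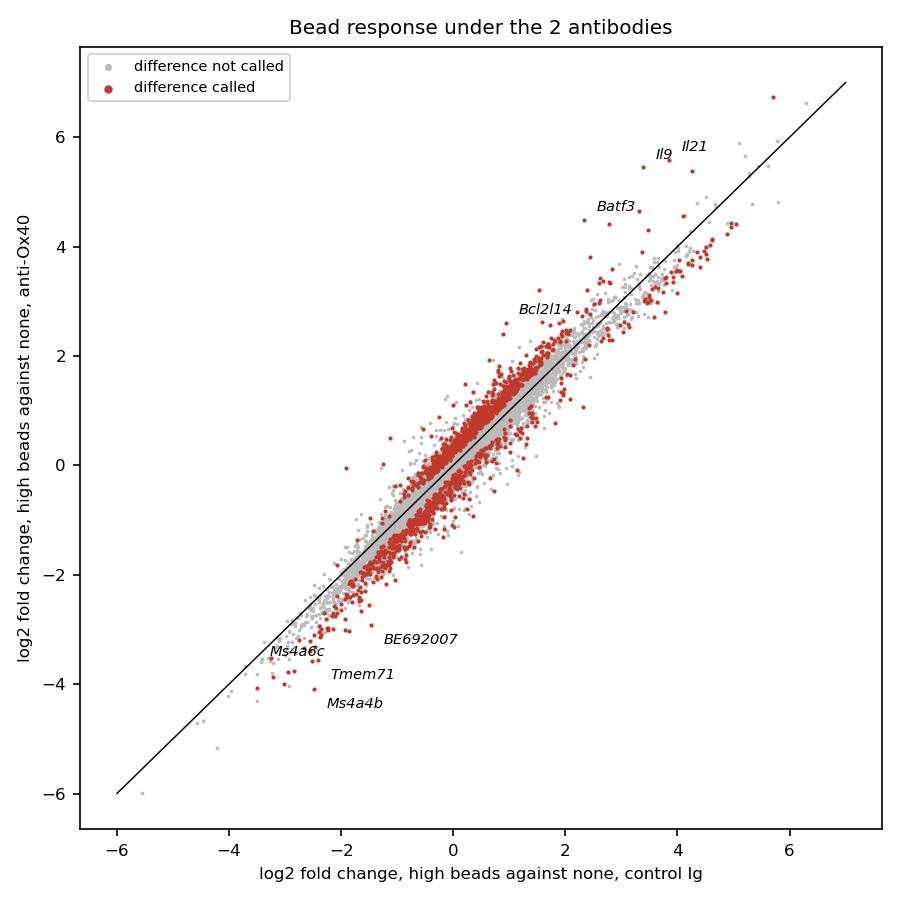
Log2 fold change, high beads against none, of 13075 genes in control Ig (horizontal) and with anti-Ox40 (vertical); red points are the 1451 genes whose change differed between the arms at an adjusted p under 0.05, and the line marks equal change. Nearly all points lie along the line, with Batf3, Il9, Il21 and Bcl2l14 above it and Ms4a4b, Tmem71, Ms4a6c and BE692007 below it.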

How the data were processed

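RNA libraries of 18 cultures of mouse splenic CD4 T cells, 3 in each of 6 groups, were sequenced. The authors deposited 1 table of nRPKM values, an RPKM with a further normalization between libraries whose method is not given in the sources used here; per the submitters' processing notes GSNAP and the genome build GRCm38 were used, and versions, counting and strand are not given. Entries with blank or date-like gene names (6 and 27 of 36528) stayed in the data and were passed over only when genes were named. Genes with at least 1 nRPKM in at least 3 of the 18 libraries were kept (13075). Values were taken as log2(nRPKM + 1) and fitted with limma 3.58.1 (trend, R 4.3.3) as means of 6 groups over all 18 libraries, which gives 12 residual degrees of freedom; p-values were adjusted by Benjamini-Hochberg over all genes tested, and limma's treat test with a log2 change of 1 gave the calls past 2-fold. The code was tested on simulated data: of 50 genes changed by 1 on the log2 scale in the comparison of high beads with none, 98% were called, and of 50 changed by 0.5, 88%. Among the unchanged genes 7 were called. The noise was drawn from a normal distribution, and only a small part of the genes was changed, unlike in the data. The changed genes were drawn from those with higher levels, so recovery of genes near the filter was not tested.

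Depth per library is known only through the steps of low values, from which the reads behind an nRPKM of 1 over 1 kb were derived. The labels number no replicates: numbers follow accession order and are only names. Same-group libraries had Pearson correlations of 0.989 to 0.995, and no pair of libraries was identical. Members and gene lists were chosen with earlier results of these data known.

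Genes named are the 15 largest rises and falls in log2 change (group means of at least 1 and 20 nRPKM, groups not overlapping), the 12 largest gains and losses in nRPKM, up to 4 called members of each list with the largest change and 2 against its median, the expression standards, the 5 largest differences between antibodies each way, the 10 steadiest genes at 50 nRPKM or more, and the 2 largest changes each way of each symbol family; some genes that this rule covers are not reported here. The following were named after their values were seen: Abcg1, Ago1, Ago2, Ago3, Ago4, Bcl6, Cars, Ccr7, Cd3e, Cd79b, Cd8b1, Cdc6, Ctla4, Cxcr5, Ddx58, Eif4a1, Eno1, Eno3, Foxp3, Fth1, Gclc, Hif1a, Hmgcs1, Ifng, Ifngr1, Il2, Il21r, Il2rg, Il4, Il4ra, Ldha, Lgals1, Mcm7, Mir155, Mir17hg, Mir92-1, Mtf1, Pdk1, Pfkfb4, Pgam1, Phgdh, Prf1, Psmd4, Sat1, Slc2a1, Smc2, Snhg1, Stat3, Stat4, Stat5a, Stat5b, Tap1, Tigit and Tnfrsf18.

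Alternatives were pseudocounts of 0.1 and 0.5, no filter, a filter at 5 nRPKM, only the groups compared, no trend, quantile, median and equal-sum scaling, scores of nuclear RNA, lung transcripts or B cell markers as covariates, and each library left out. Leaving out both libraries with the highest B cell score was added after seeing the data.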

Additional observations from a re-analysis of the deposited data

Results flagged for a closer look

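The bead effect, high beads minus none, differed between anti-Ox40 and control Ig for 1451 genes by the test of the difference itself in limma. The 10 largest called differences are given as anti-Ox40 minus control Ig on the log2 scale. On the positive side they were 2.16 for Batf3, 2.07 for the cytokine gene Il9, 1.86 for the microRNA gene Mir7041, 1.74 for Il21 and 1.68 for Bcl2l14, a member of the BCL2 family. On the negative side they were -1.61 for Ms4a4b, -1.46 for BE692007, -1.27 for the small nucleolar RNA gene Snord73a, -1.16 for Ms4a6c and -1.14 for Tmem71.

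In control Ig, Mir7041 stood at 12.5, 5.06 and 6.89 nRPKM without beads and 1.66, 1.13 and 1.14 at high beads, and with anti-Ox40 at 4.4, 1.84 and 4.36 without beads and 5.27, 2.96 and 1.97 at high beads. Its gene is short, so the lower of these values rest on few reads. The Mir7041 call was lost in 6 of the 12 fits that left out 1 library, and that of Snord73a in 3. The order of the differences depends on the pseudocount of 1 used here: with 0.1 that of Il9 was 0.61 and not called. With no filter on low values the calls of Il9, Mir7041, Ms4a4b and Snord73a were lost (adjusted p = 0.0817, 0.0730, 0.0824 and 0.0570 in limma), and with only the groups compared that of Ms4a4b (0.0672). Bcl2l14 stood at 1.18, 1.06 and 0.916 at high beads in control Ig and at 6.07, 5.68 and 4.96 with anti-Ox40. Tmem71, which fell in both antibody groups, stood at 12.2, 18.1 and 16.4 and 4.83, 8.85 and 6.24 at high beads.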

How the results depend on the processing

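Of 279 called genes named here, 240 were called under every alternative that gave a value. More than 2-fold falls numbered 1206 with a pseudocount of 0.1 and 1192 with equal sums, against 744. With the nuclear RNA score as a covariate, 3355 genes were called lower, 593 were more than 2-fold higher and 262 more than 2-fold lower. The changes of Eno3 (0.015), Malat1 (0.48), Mir29c (0.67) and Mir92-1 (0.59) became positive, but none was called (adjusted p = 0.937, 0.113, 0.525 and 0.463 in limma). Malat1 is itself part of the score. The cause was not tested. Scalings turned the sign of Psmd4 (-0.096) and Sdha (-0.12) with quantile normalization, of Sdha (-0.0060) with equal sums, and of the median of inhibitory receptors (-0.25 with no filter, -0.079 with quantile normalization, -0.13 with equal sums) and of antioxidant genes (-9.8e-05 with equal sums). Genes whose bead effect differed between antibodies with a smaller value in anti-Ox40 numbered 391 with no filter, and leaving out 1 library gave 344 to 944 genes with a larger and 258 to 799 with a smaller value. With 1 library left out the group keeps 2, whose spread is pooled with that of the other groups. Calls in the main comparison then ranged from 5537 to 5594 higher and 4935 to 4975 lower. Of 156 counts of list members called higher or lower, 44 moved by more than 1.5 times with the nuclear RNA score as a covariate, 32 with equal sums, 29 of 154 with a filter at 5 nRPKM, which tests fewer genes, 18 with quantile normalization and at most 7 with any other alternative. No paired analysis was possible because the labels carry no replicate numbers, and the order of accession does not pair libraries by itself. The third library by accession had the highest B cell marker score in each of the 6 groups. Whether libraries at the same place in that order share mice or a day is not known and was not tested. Depth limits genes near the filter: 1 nRPKM over 1 kb was about 34 reads, and the absence of counts leaves that noise unmodelled. A gene shorter than 1 kb has fewer reads at the same nRPKM. Low values of microRNA and small nucleolar RNA genes therefore rest on few reads.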

Other observations

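Several families outside the pathways above were counted as well. Of 25 tested kinesin genes 16 rose and 7 fell (median 1.85). Kif11, the motor that separates spindle poles, stood at 1.31, 1.58 and 1.44 nRPKM without beads and 50.2, 54.6 and 54.8 at high beads (log2 fold change 4.47, SE 0.084, adjusted p = 2.78e-16). Kif21b, a motor that paces microtubule growth, was abundant without beads and fell, with 134, 149 and 144 nRPKM without beads and 44.1, 55.1 and 48.7 at high beads (log2 fold change -1.52, SE 0.083, adjusted p = 6.04e-11), as did Kif1b, a carrier of organelles (16.2 to 4.41, -1.67). Nuclear pore genes rose in 17 of 19 cases (median 1.03), and mitochondrial import genes of the Timm and Tomm families in 18 of 21 (median 0.88). Among Slc25 mitochondrial carriers 18 of 38 rose (47.4%) and 13 fell (34.2%), near the shares of all genes (43.4% and 38.9%). The ADP/ATP carrier gene Slc25a4 went from 35.8 to 150.4 nRPKM (2.04), and Slc25a27, an uncoupling protein gene, stood at 5.14, 6.47 and 5.91 nRPKM without beads and 0.903, 0.952 and 0.90 at high beads (log2 fold change -1.83, SE 0.14, adjusted p = 3.30e-09).

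In the MYC network and polyamine synthesis, 10 of 18 tested genes rose (55.6%) and 7 fell (38.9%), against 43.4% and 38.9% of all tested genes. Odc1, which makes the first polyamine, stood at 10.1, 9.33 and 9.4 nRPKM without beads and 37.7, 28.8 and 29 at high beads (log2 fold change 1.62, SE 0.12, adjusted p = 3.32e-09), and Eif5a, whose product carries a residue made from spermidine, went from 80.1 to 250.3 (1.63). Sat1, the enzyme that marks polyamines for export, fell from 48.9 to 31.8 (-0.61). The MAX partners parted, Mxd3 rising from 0.638 to 21.4 (3.78) and Mxd4 falling from 44.3 to 24.1 (-0.85). In iron handling, Fth1, the ferritin heavy chain that stores iron, fell from 407, 428 and 425 to 254, 262 and 244 (log2 fold change -0.73, SE 0.072, adjusted p = 9.32e-08), while the transferrin receptor rose. Of 10 tested Klr receptor genes 8 fell.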
